A study of Mus musculus with 6 samples.

Results

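The 10 genes described here are markers and working parts of resting Müller glia, the radial glial cells that span the neural retina from its inner limiting membrane to the photoreceptor layer. They were taken by symbol from the table of gene counts: Glul, Slc1a3, Aqp4, Kcnj10, Apoe, Vim, Sox9, Car14, Dkk3 and Clu. All 10 were found among 25124 gene models, and all 10 passed the filter on low counts that left 14685 genes for testing. Whole retinas came from C57BL/6J mice at an age of 4 months, in 2 groups of 3 libraries. Mice of the C234W group carried the Elovl2(C234W) genotype, a substitution in the elongase that extends polyunsaturated fatty acids towards docosahexaenoic acid, and the others were wild type (WT). The labels name no other allele and no treatment, and do not give zygosity or say whether animals were pooled. The C234W libraries are FS3A, FS3B and FS5A and the WT libraries WT1A, WT2A and WT2B, and the prefix FS was assigned to C234W by elimination, so every direction rests on that assignment.

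Müller glia take up the glutamate released at retinal synapses and convert it to glutamine, which is handed back to neurons. They carry potassium and water away from active neurons through channels concentrated at their endfeet on vessels and the vitreous, buffer carbon dioxide and protons, supply lipoproteins, and recycle part of the retinoid of cones. In an injured retina they become reactive, with more intermediate filament and a changed set of secreted proteins. In RNA from whole retina, fewer Müller cells and less RNA per cell cannot be told apart.

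None of the 10 genes passed the test between genotypes. By edgeR's quasi-likelihood test with Benjamini-Hochberg adjustment over all tested genes, 0 of 10 had an adjusted p under 0.05, against 1.82% of all tested genes, and DESeq2 and limma-voom also called 0 of 10. At an unadjusted p under 0.05 there were 3 of 10, all lower in C234W, against 25.9% of all tested genes in either direction and 13.7% in that direction. Those 3 were Glul, Apoe and Car14, each with lower values in every C234W library than in any WT library. Genes separated in that direction made up 16.4% of all tested genes, so the 3 of 10 are given as a count only. Scaled to total counts in genes instead of TMM, the groups of all 3 genes overlapped; Glul was then at 2376, 2562 and 2202 CPM in C234W and 2308, 2951.5 and 3215 CPM in WT. No gene of the 10 was higher in every C234W library, against 12.6% of all tested genes. The median log2 fold change of the 10 genes was -0.03, with 5 positive and 5 negative, beside 0.02 over all tested genes.

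**Figure D1:**
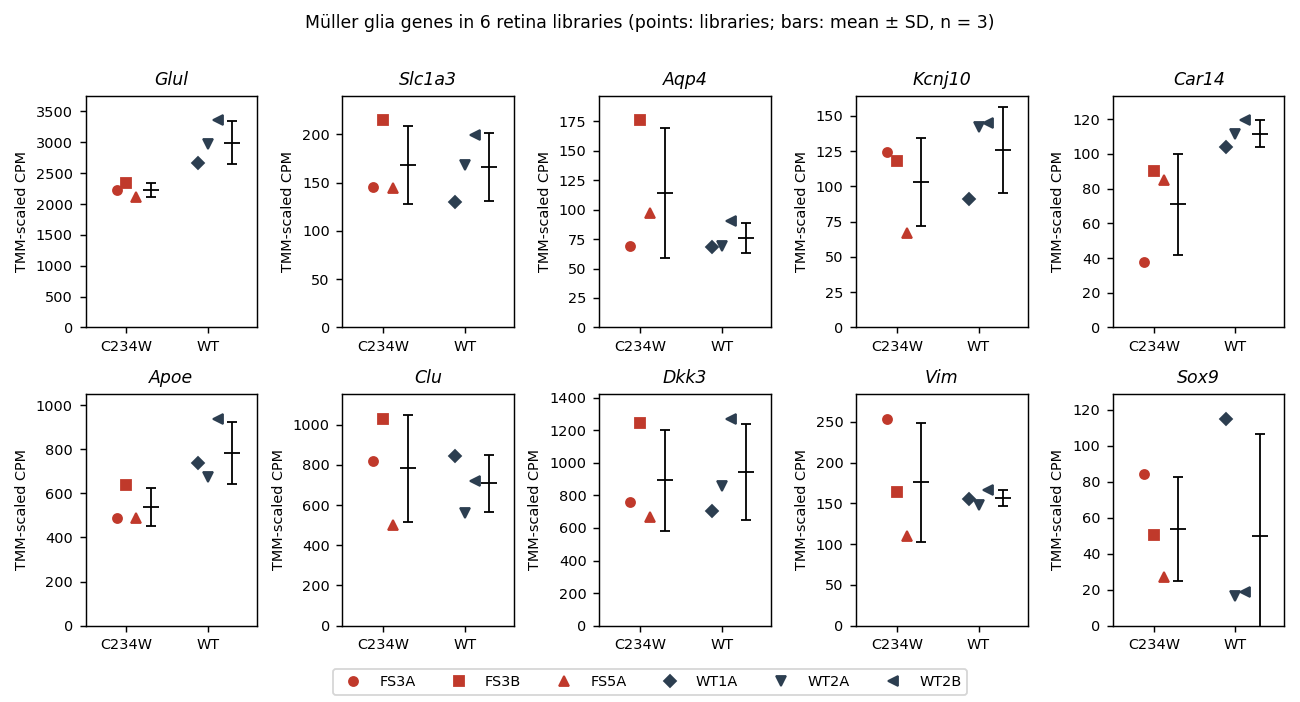
Expression of the 10 genes in TMM-scaled CPM (counts scaled to library size, vertical axes) in each library of C234W (red) and WT (dark) retinas, with mean ± SD of 3 libraries to the right of the points (the lower bar of Sox9 in WT is cut at 0). The groups separate for Glul, Apoe and Car14 and overlap for the other 7 genes, and in WT the Sox9 value of WT1A (115.0 CPM) lies far above 16.3 and 18.7 CPM.

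Library size and marker content set the frame for these values. The libraries held 14184093 to 19298613 counts in genes, so each member rested on at least 253.5 counts per library and counting error was small beside the spread between libraries. Elovl2 itself had 82.0, 90.1 and 116.3 CPM in C234W against 141.9, 138.3 and 135.9 CPM in WT (log2 fold change -0.53, SE 0.17, adjusted p = 0.0991), which does not check a point substitution. Rod markers, which define photoreceptors, were present throughout, with a summed level of 65976 to 87708 CPM in C234W and 98376 to 154320 CPM in WT. Markers of the retinal pigment epithelium, a layer outside the neural retina that also expresses Sox9 and Rlbp1, summed to 74.2 to 112.6 CPM in C234W, and to 469.1 CPM in WT1A against 132.7 and 71.7 CPM in the other WT libraries, with 0 of 10 at 0 counts. Ttr supplied 326.7 CPM of the WT1A sum, and 3 of the 10 markers averaged below 1 CPM. Rpe65, Lrat, Ttr, Tyr, Tyrp1 and Slc45a2 were highest in WT1A, and Pmel, Mlana, Best1 and Rrh in other libraries. WT1A thus stood apart from WT2A and WT2B in that sum, and values without it are given below. Nothing in the labels says that libraries came from separate animals, and names share a number in FS3A and FS3B and in WT2A and WT2B. The p-values therefore rest on the spread between libraries, which may be technical. All calls without WT1A rest on a WT group of WT2A and WT2B only. That pair was the closest of all (chi-square 9.97 per degree of freedom). The other pair that shares a number, FS3A and FS3B, was farther apart (47.65) than FS3A and FS5A (30.57).

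The promoters of Glul, Apoe and Car14 are shown because their groups did not overlap under TMM scaling, although none passed the test, and that of Slc1a3 as the sole matched member with a SOX core motif, given that the SOX factor Sox9 is itself one of the 10. Sequences are from RefSeq on GRCm38.p6, on the strand of the gene, from 250 bases before to 50 bases after the start, and capitals mark the SOX core (ACAAT) or the GC box (GGGCGG) on either strand. A window was matched for 6 genes. Aqp4 was left out before matching, so its promoter was not searched, and Sox9, Dkk3 and Clu had no window. The windows are chr1:153899679-153899978 (Glul, plus strand), chr7:19698349-19698648 (Apoe, minus strand, at the start of the counted transcript), chr3:95904636-95904935 (Car14, minus strand) and chr15:8710758-8711057 (Slc1a3, minus strand).
Glul: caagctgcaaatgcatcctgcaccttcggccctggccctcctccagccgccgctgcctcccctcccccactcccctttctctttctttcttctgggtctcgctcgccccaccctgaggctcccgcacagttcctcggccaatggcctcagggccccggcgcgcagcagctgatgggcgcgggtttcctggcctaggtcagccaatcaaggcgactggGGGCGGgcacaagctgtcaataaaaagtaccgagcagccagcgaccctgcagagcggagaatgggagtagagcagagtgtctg
Apoe: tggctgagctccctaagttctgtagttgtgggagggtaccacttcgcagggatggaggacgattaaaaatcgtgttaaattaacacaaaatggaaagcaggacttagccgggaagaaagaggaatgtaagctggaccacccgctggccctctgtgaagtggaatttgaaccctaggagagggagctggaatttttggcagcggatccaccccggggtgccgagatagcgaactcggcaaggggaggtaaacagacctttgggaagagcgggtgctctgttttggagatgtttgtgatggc
Car14: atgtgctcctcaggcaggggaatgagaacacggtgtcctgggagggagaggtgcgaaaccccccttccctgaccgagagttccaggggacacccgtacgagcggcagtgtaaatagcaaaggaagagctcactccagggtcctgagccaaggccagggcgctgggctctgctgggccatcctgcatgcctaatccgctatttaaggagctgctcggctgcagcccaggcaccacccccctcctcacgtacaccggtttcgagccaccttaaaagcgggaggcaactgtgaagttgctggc
Slc1a3: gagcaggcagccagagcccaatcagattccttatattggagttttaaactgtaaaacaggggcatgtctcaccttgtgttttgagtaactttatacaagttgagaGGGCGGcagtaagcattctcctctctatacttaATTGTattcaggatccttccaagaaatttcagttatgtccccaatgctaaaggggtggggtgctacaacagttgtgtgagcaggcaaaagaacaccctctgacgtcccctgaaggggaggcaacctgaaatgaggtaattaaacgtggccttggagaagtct
The SOX core was found in 1 of the 6 windows, and in 31.0% of all 32851 promoter windows of that length. The GC box was found in 3 of the 6 (Glul, Kcnj10 and Slc1a3), and in 35.7% of all windows. Neither motif was found in the Apoe or Car14 window.

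Of the glutamate handling pair, the enzyme was separated between genotypes and the transporter was not. Glul encodes glutamine synthetase, which joins ammonia to glutamate, and lies at chr1:153899929-153909723 of mm10. It was measured at 2235, 2345 and 2121.5 CPM in C234W (FS3A, FS3B and FS5A in that order, as throughout), against 2658.5, 2972 and 3355 CPM in WT (WT1A, WT2A and WT2B). The groups did not overlap, and both were tight, with a coefficient of variation of 5.01% in C234W and 11.6% in WT. The log2 fold change was -0.42 (SE 0.18, 95% interval -0.83 to -0.02, edgeR adjusted p = 0.177). Slc1a3, the glial glutamate transporter GLAST (chr15:8634124-8710807), had 145.6, 214.4 and 144.1 CPM in C234W and 129.5, 168.5 and 199.6 CPM in WT. Each group spanned the other's mean, and the log2 fold change was 0.02 (SE 0.22, 95% interval -0.47 to 0.51, adjusted p = 0.968). With each library's trend on transcript length removed, Slc1a3 had -0.17 (adjusted p = 0.688).

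The other genes of glutamate and glutamine handling showed no called change, with 0 of 9 tested genes passing in either direction and a median log2 fold change of 0.12. The smallest p belonged to Slc6a9, the glycine transporter GlyT1, at 117.2, 197.8 and 130.7 CPM in C234W and 122.3, 87.5 and 92.8 CPM in WT (log2 fold change 0.56, SE 0.23, adjusted p = 0.167). Slc7a11, the cystine and glutamate exchanger, varied far more between libraries than between groups. It was at 32.2, 20.3 and 8.78 CPM in C234W and at 16.9, 1.29 and 2.35 CPM in WT, again with WT1A well above the other WT libraries. The highest levels per length in this list were those of Aldoc, a glycolytic aldolase of glia, and Slc38a3, a glutamine transporter, at 203.8 and 193.4 CPM per kb over the 6 libraries.

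Aqp4 and Kcnj10, the water and potassium channels of the Müller cell endfoot, lay on opposite sides of 0. Aqp4, the aquaporin (chr18:15389394-15402999), had 69.3, 175.8 and 96.9 CPM in C234W and 68.0, 69.0 and 90.6 CPM in WT. FS3B was by far the highest of the 6 libraries, while FS3A sat beside WT1A and WT2A. The log2 fold change was 0.59 (SE 0.31, 95% interval -0.11 to 1.29, adjusted p = 0.257), and it was 0.13 without FS3B. Kcnj10, the inwardly rectifying channel Kir4.1 (chr1:172341210-172374085), had 124.3, 118.0 and 67.2 CPM in C234W and 90.9, 142.0 and 145.2 CPM in WT. Its lowest value was in FS5A and its next lowest in WT1A, and the log2 fold change was -0.29 (SE 0.26, 95% interval -0.89 to 0.31, adjusted p = 0.518). Without FS5A it was -0.06. With the length trend removed, edgeR gave 0.34 for Aqp4 (adjusted p = 0.567) and -0.54 for Kcnj10 (adjusted p = 0.295). Within libraries, Aqp4 CPM per Kcnj10 CPM was 0.56, 1.49 and 1.44 in C234W and 0.75, 0.49 and 0.62 in WT. FS3A thus fell within the WT range of this ratio, and FS3B and FS5A lay above it.

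Among 11 tested genes of potassium transport, water transport and dystrophin anchoring, 0 passed, and the median log2 fold change was 0.10. Kcnj2, the channel Kir2.1, was low but separated, at 7.01, 15.7 and 7.32 CPM in C234W and 4.38, 6.41 and 5.81 CPM in WT (log2 fold change 0.86, SE 0.36, adjusted p = 0.173). Atp1b2, a sodium pump subunit that neurons and photoreceptors also use, had the highest level of the list at 559.8 CPM per kb, with a log2 fold change of -0.07.

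Car14 had the lowest log2 fold change of the 10 genes, and the value rested in part on FS3A. It encodes carbonic anhydrase 14, a membrane enzyme that hydrates carbon dioxide outside the cell, at chr3:95897768-95904685. It was measured at 37.7, 90.4 and 84.7 CPM in C234W against 103.9, 111.6 and 119.3 CPM in WT. All 3 C234W libraries lay below WT, 2 of them narrowly. The log2 fold change was -0.65 (SE 0.29, adjusted p = 0.193), and -0.35 without FS3A (adjusted p = 0.353). In the list of carbonic anhydrases, bicarbonate exchangers and lactate transport, 0 of 8 tested genes passed and the median was 0.10. Car2, the cytosolic carbonic anhydrase of Müller glia, had the smallest p, at 496.2, 492.8 and 472.6 CPM in C234W and 626.2, 705.7 and 790.7 CPM in WT (log2 fold change -0.54, SE 0.16, adjusted p = 0.0864). Car2 was called by DESeq2 (adjusted p = 0.0178), where 12.7% of genes with an adjusted p were called. Bsg, basigin, which partners lactate transporters in glia and photoreceptors, had 641.4, 798.7 and 796.1 CPM in C234W and 1173, 856.3 and 961.1 CPM in WT (log2 fold change -0.42, SE 0.19, adjusted p = 0.193). The bicarbonate exchanger Slc4a3 was separated the other way, at 98.2, 120.8 and 114.7 CPM in C234W and 80.6, 79.9 and 90.3 CPM in WT (log2 fold change 0.41, SE 0.15, adjusted p = 0.134).

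None of the 3 secreted proteins among the 10 genes, Apoe, Clu and Dkk3, passed the test. Apoe, the lipoprotein that carries cholesterol and phospholipid out of glia (chr7:19696244-19698398), had 486.3, 639.7 and 490.0 CPM in C234W against 736.2, 673.3 and 939.1 CPM in WT. No C234W library reached the lowest WT library, though FS3B and WT2A were close. The log2 fold change was -0.54 (SE 0.19, 95% interval -0.98 to -0.10, adjusted p = 0.134), and -0.29 with the length trend removed (adjusted p = 0.422). The Apoe transcript counted was short, at 1235 bases, and the fifth of tested genes with the shortest transcripts had a median log2 fold change of -0.34, against 0.28 for the fifth with the longest. Microglia also make Apoe, and their 10 markers summed to 70.2, 120.9 and 89.8 CPM in C234W and 87.7, 95.6 and 139.5 CPM in WT, with 0 of 10 at 0 counts and their part in the Apoe values not tested. Apoe was also set against the mean log2 CPM of the other 9 genes in the same library. It was then at 1.11, 1.19 and 1.46 in C234W and 1.63, 1.70 and 1.94 in WT, without overlap. The groups of the other 9 genes, Glul and Car14 among them, overlapped on that scale. The share of all tested genes that separate on this scale was not computed. Transcript length was not accounted for on it, and Apoe had the shortest counted transcript of the 10 genes. Library scaling largely cancels on this scale. In CPM scaled to total counts, the Apoe groups overlapped.

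Clu, clusterin, an extracellular chaperone (chr14:65968483-65981548), had 817.9, 1031 and 501.2 CPM in C234W and 846.0, 560.3 and 719.8 CPM in WT. Its highest and lowest values were both in C234W libraries, and the log2 fold change was 0.14 (SE 0.27, 95% interval -0.47 to 0.76, adjusted p = 0.770). Dkk3, a secreted protein of the Dickkopf family (chr7:112116019-112159131), had 762.4, 1245 and 668.1 CPM in C234W and 703.6, 858.4 and 1271 CPM in WT. FS3B and WT2B were the 2 high libraries, 1 in each group, and the log2 fold change was -0.08 (SE 0.29, 95% interval -0.74 to 0.57, adjusted p = 0.885). Of 8 other tested secreted and matrix genes 0 passed, with a median of 0.17. The binding protein Igfbp5 had 44.1, 58.5 and 36.8 CPM in C234W and 30.2, 33.0 and 34.6 CPM in WT (log2 fold change 0.51, SE 0.20, adjusted p = 0.151), and Sparc, a matrix glycoprotein, had the highest level per length at 123.1 CPM per kb with a log2 fold change of 0.15. Crym, a thyroid hormone binding protein, had 162.9, 92.5 and 45.4 CPM in C234W and 70.8, 61.3 and 61.8 CPM in WT (log2 fold change 0.63, SE 0.37, adjusted p = 0.305).

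Retinoid and lipid handling held the Müller gene closest to the threshold outside the 10. Rlbp1 encodes the retinaldehyde binding protein CRALBP of Müller glia and pigment epithelium, and it had 334.6, 347.8 and 254.6 CPM in C234W against 452.2, 673.1 and 777.0 CPM in WT. The groups were well separated (log2 fold change -1.02, SE 0.23, adjusted p = 0.0547 by edgeR). DESeq2 gave adjusted p = 0.0014, and edgeR with no filter on low counts 0.0482. The sum of pigment epithelium markers was highest in WT1A (469.1 CPM, of which Ttr supplied 326.7 CPM), which had the lowest Rlbp1 of the WT libraries. Some of these markers were highest in other libraries. The part of pigment epithelium in the Rlbp1 values was not tested. Over the list, 0 of 10 genes passed in edgeR, 2 lower ones had an unadjusted p under 0.05, and the median was -0.26. The other of the 2 was Abcg1, a sterol exporter, at 100.2, 104.0 and 197.2 CPM in C234W and 192.1, 219.7 and 208.2 CPM in WT (log2 fold change -0.63, SE 0.26, adjusted p = 0.167). FS5A lay among the WT libraries for Abcg1. Scd2, a fatty acid desaturase with the next highest level after Rlbp1 (59.1 CPM per kb), had a log2 fold change of -0.01.

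Vim and Sox9 varied more between libraries of the same genotype than between genotypes. Vim encodes vimentin, the intermediate filament of Müller glia (chr2:13574311-13582826), and had 253.8, 164.0 and 109.4 CPM in C234W and 155.3, 148.0 and 166.4 CPM in WT. The WT values were tight (coefficient of variation 5.92%), whereas the C234W values lay on both sides of them (41.5%). The log2 fold change was 0.17 (SE 0.27, 95% interval -0.44 to 0.77, adjusted p = 0.727). Sox9, the transcription factor that marks Müller nuclei (chr11:112782210-112787757), had 84.2, 50.5 and 26.8 CPM in C234W and 115.0, 16.3 and 18.7 CPM in WT. The highest WT library exceeded the lowest 7.05-fold, and WT1A was the highest of all 6. With a log2 fold change of 0.11, SE 0.77 and a 95% interval of -1.67 to 1.89, the libraries set no useful bound on a genotype difference in Sox9 (adjusted p = 0.947). Without WT1A Sox9 was 1.63 (SE 0.44, adjusted p = 0.0405), where edgeR called 18.5% of all genes, and without any of WT2A, WT2B or FS3A it was negative (-0.31, -0.28 and -0.37). Over the 6 libraries the SD of Sox9 was 1.14 on the log2(CPM + 1) scale, against a median of 0.30 for 9973 genes of at least 10 CPM, of which 99.5% varied less.

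**Figure D2:**
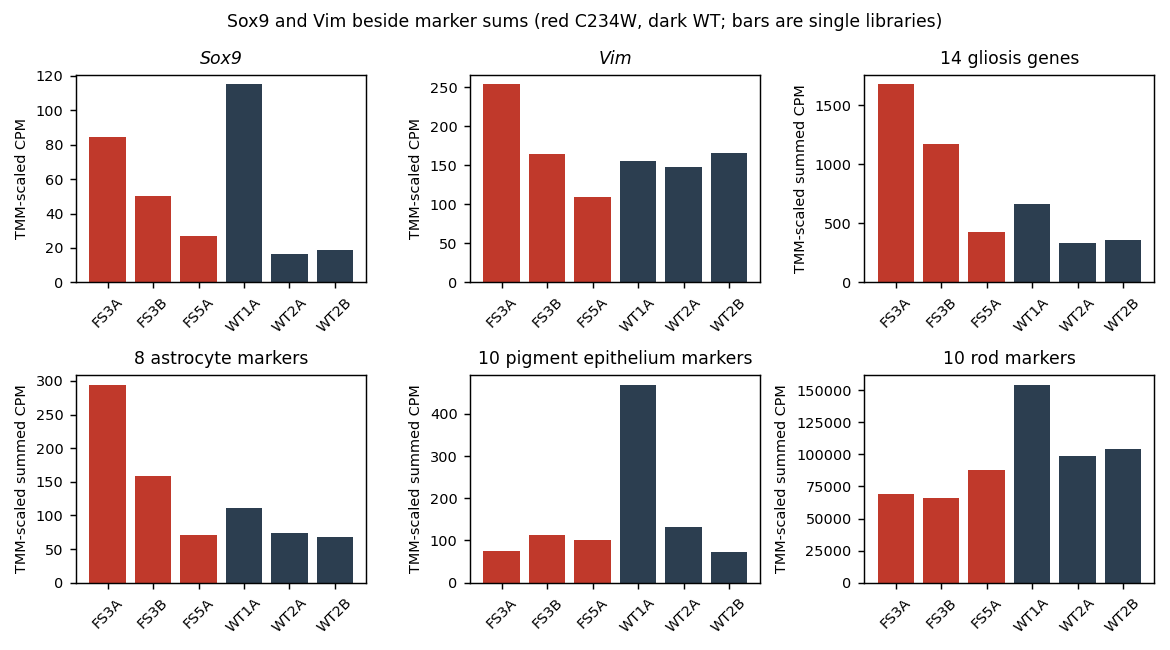
Sox9 and Vim (TMM-scaled CPM) and the summed CPM of 4 marker lists in each library, C234W in red and WT in dark, each bar a single library. FS3A, FS3B and WT1A had the highest Sox9 (84.2, 50.5 and 115.0 CPM) and the highest gliosis sums (1678, 1173 and 661.0 CPM). WT1A alone had a high sum of pigment epithelium markers, most of it from Ttr.

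Gliosis genes, which reactive Müller glia and astrocytes induce, varied across libraries beside Sox9. The 14 genes of that list summed to 1678, 1173 and 423.1 CPM in C234W and 661.0, 335.1 and 360.1 CPM in WT, with 0 of 14 at 0 counts. All 14 had positive log2 fold changes, with a median of 1.59, where 7628 of all 14685 tested genes were positive. An unadjusted edgeR p under 0.05 was found for 8, against 12.2% of all tested genes in that direction. By edgeR 1 of 14 passed, against 1.82% of all tested genes. It was Ednrb, the endothelin B receptor, at 13.9, 11.4 and 7.80 CPM in C234W and 4.65, 3.55 and 2.501 CPM in WT (log2 fold change 1.62, SE 0.32, adjusted p = 0.0475). Without WT1A edgeR called 6 of 14, against 8.93% of all genes in that direction. Without any other single library it called 0 of 14, with Ednrb then at adjusted p = 0.0814 to 0.231. DESeq2 called 4 of 14, where 12.7% of genes with an adjusted p were called in either direction. Ednrb was also not called with total-count scaling, limma-voom, the length trend removed or libraries summed (adjusted p = 0.0501, 0.0502, 0.0953 and 0.368). The 3 libraries with the most Sox9 also had the largest gliosis sums. Socs3, an inhibitor of cytokine signalling that was chosen after its values were seen, had 130.7, 86.7 and 17.8 CPM in C234W and 104.3, 14.5 and 20.5 CPM in WT, with the largest p of the list (log2 fold change 0.76, adjusted p = 0.612). Gfap, a filament of astrocytes and reactive Müller glia, had 248.4, 99.4 and 26.5 CPM in C234W and 46.8, 25.3 and 20.4 CPM in WT. The 8 astrocyte markers, Gfap among them, summed to 294.4, 158.9 and 70.2 CPM in C234W and 111.4, 73.7 and 68.3 CPM in WT. Without Gfap the other 7 summed to 45.9, 59.5 and 43.7 CPM in C234W and 64.6, 48.4 and 48.0 CPM in WT, with overlapping groups and WT1A highest. Aldh1l1, next in CPM after Gfap, had 19.6, 22.4 and 16.2 CPM in C234W and 17.7, 11.9 and 16.0 CPM in WT. Its log2 fold change was 0.36 (SE 0.22, edgeR adjusted p = 0.324). Of the 7 tested astrocyte markers, Gfap among them, 3 had positive and 4 negative log2 fold changes. The part of astrocytes in the Sox9 and Vim values was not tested.

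Of 15 identity transcription factors and Notch targets, 0 passed, and the median log2 fold change was close to 0 (-0.0015). Lhx2, which keeps Müller glia quiescent in the mouse, had 19.4, 30.0 and 28.2 CPM in C234W and 28.6, 55.5 and 55.6 CPM in WT (log2 fold change -0.85, SE 0.28, adjusted p = 0.112). WT1A thus lay with the C234W libraries for Lhx2, which DESeq2 called with adjusted p = 0.0445. Rax, a factor shared with photoreceptors, had 119.6, 100.1 and 115.7 CPM in C234W and 163.3, 146.2 and 141.1 CPM in WT (log2 fold change -0.43, SE 0.15, adjusted p = 0.123), and Pax6, the eye field factor of amacrine and other inner retinal cells, had a log2 fold change of 0.07.

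Across the 6 wider lists together, 0 of 61 tested genes passed in edgeR, 13 had an unadjusted p under 0.05 (6 higher and 7 lower, against 12.2% and 13.7% of all tested genes), and the median log2 fold change was 0.07. DESeq2 called 4, among them Rlbp1, Car2 and Lhx2. Without WT1A, the WT group was WT2A and WT2B only, which share a name number. In that fit edgeR called 7 of 63, 3 higher and 4 lower, where it called 8.93% and 9.55% of all genes in those directions. They were Slc16a3, the lactate exporter (1.11 on the log2 scale), Gja1, connexin 43 (2.13), and Slc7a11 (3.54) on the higher side, and Rlbp1 (-1.21), Lhx2 (-1.10), Car2 (-0.61) and the nuclear factor Nfix (-0.56) on the lower side.

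**Figure D3:**
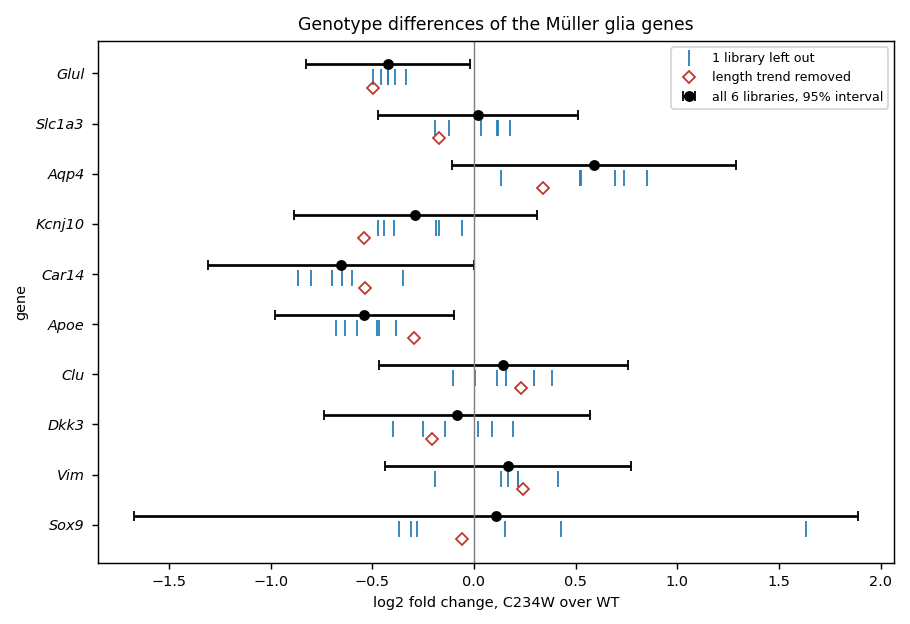
Log2 fold change of C234W over WT (horizontal axis) for each gene, as the estimate from all 6 libraries with its 95% interval (black), the 6 estimates with 1 library left out (blue ticks) and the estimate with the length trend removed (red diamonds). Glul, Apoe and Car14 stay below 0 in each of these, Aqp4 stays above 0 and Kcnj10 below, and the ticks of Sox9 run from -0.37 to 1.63.

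Per transcript length, the order of levels was nearly the same in both genotypes. Glul led at 798.4 ± 40.0 CPM per kb in C234W and 1070 ± 125 in WT (SD, n = 3 each). Apoe (436.1 ± 70.9 and 633.9 ± 112.5), Clu (435.1 ± 148.0 and 393.7 ± 79.6) and Dkk3 (260.7 ± 90.4 and 276.1 ± 85.8) followed in C234W and WT, and in C234W Apoe and Clu did not differ beyond their spread. Vim stood at 96.4 ± 40.0 CPM per kb in C234W and 85.9 ± 5.08 in WT, Car14 at 42.1 ± 17.2 and 66.2 ± 4.58, and Slc1a3 at 40.1 ± 9.57 and 39.5 ± 8.37. Aqp4 (21.4 ± 10.4 and 14.2 ± 2.40), Kcnj10 (19.1 ± 5.79 and 23.3 ± 5.64) and Sox9 (13.0 ± 6.97 and 12.1 ± 13.6) were lowest in C234W and WT. Aqp4 and Kcnj10 exchanged places between the genotypes, within their spread.

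**Figure D4:**
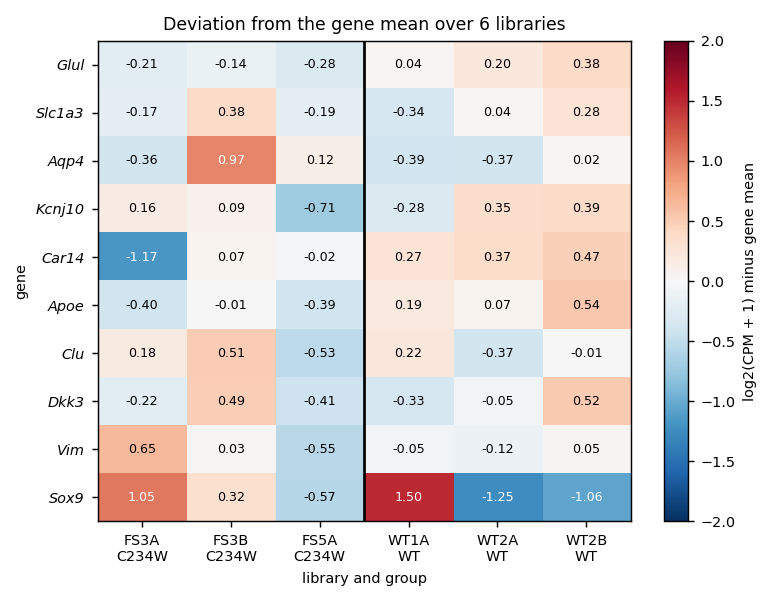
Deviation of each gene from its own mean over 6 libraries, in log2(CPM + 1), with libraries in columns (C234W left, WT right) and genes in rows (red above the mean, blue below). FS5A is below the mean for 9 of 10 genes, FS3B and WT2B are above it for 8 each, and Sox9 has both the highest value (1.498, in WT1A) and the lowest (-1.25, in WT2A), with Car14 in FS3A at -1.17.

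The 10 genes did not move as a block. In the C234W libraries their mean deviation was -0.05 (FS3A), 0.27 (FS3B) and -0.35 (FS5A), against 0.08 (WT1A), -0.11 (WT2A) and 0.16 (WT2B). The medians, on which Sox9 weighs less, were -0.19, 0.21 and -0.40 in C234W and -0.004, -0.005 and 0.33 in WT. By either measure the spread among C234W libraries was wider than the distance between the groups. FS5A had the lowest value of 5 genes and was above the mean for 1, Aqp4. WT2B had the highest value of 5 genes and FS3B of 3. FS3A combined the highest Vim with the lowest Car14 and Apoe. The summed CPM of the 10 genes was 5016, 6074 and 4310 in C234W and 5607, 5720 and 7025 in WT, of which Glul supplied 38.6 to 49.2% in C234W and 47.4 to 52.0% in WT.

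The genes outside all lists whose pattern over the 6 libraries lay nearest to the mean deviation of the 10 were Ppme1, Tuba4a, Zfyve9, Pspc1 and Bex4, with root mean square differences of 0.058, 0.061, 0.062, 0.065 and 0.068 on the log2 scale among 9871 candidates. Ppme1 had 114.8, 155.9 and 104.7 CPM in C234W and 132.8, 112.0 and 136.3 CPM in WT.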

How the data were processed

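Poly-A RNA of 6 retina samples was sequenced. Per the labels' protocols libraries were strand-specific TruSeq; per the submitters' processing notes STAR 2.7.8a aligned reads to mm10 and HOMER counted them, for 1 isoform per locus per the series' design text. The authors deposited estimated counts, unnormalized per the file headers, whose values come in steps of 0.5, with 28.3 to 32.1% per library not whole; they were rounded to whole numbers. Counts of Apoe, Car14, Aqp4 and Dkk3, which have several transcripts, depend on the isoform kept. Columns carry no replicate number of the labels; 0 sample columns were left out. No pair of libraries agreed within sampling noise (smallest chi-square 9.97 per degree of freedom, WT2A and WT2B).

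Genes were kept by filterByExpr, scaled by TMM and compared by the quasi-likelihood test of edgeR (4.0.16, R 4.3.3) with robust dispersion and no covariate, C234W over WT. P-values were adjusted by Benjamini-Hochberg over 14685 genes (threshold 0.05). SE is the fold change over the root of F. Alternatives used DESeq2 (1.42.0), limma-voom (3.58.1), other scalings and filters, a loess length offset (span 0.3) and left-out or summed libraries. Scripts were tested on simulated data.

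The members and lists were chosen with earlier results of these data known. Besides the 10 members and Elovl2, the text names in each wider list the 2 genes of smallest p and the 2 of highest CPM per kb. It also names leading markers of other cell types and the 5 genes of most similar pattern. Genes called under DESeq2 or without WT1A, and Ednrb and Socs3, were named after their values were seen. A few genes that this rule names are not reported here, though the counts and medians of their lists include them.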

Additional observations from a re-analysis of the deposited data

How the results depend on the processing

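Over all genes edgeR called 267, against 1754 by DESeq2, 1 with total-count scaling, 1 with the length trend removed and 0 after summing libraries that share a name number; leaving out 1 library gave 0 to 2771 calls, the highest without WT1A. Of the 10 Müller glia genes, 0 were called under each of these and 0 to 1 with 1 library left out (Sox9 without WT1A). Of the wider lists, 1 gene was called with no filter, 4 by DESeq2 and 0 to 7 with 1 library left out, 7 without WT1A. Total-count scaling moved the median over all genes to 0.21 (log2); Glul, Apoe and Car14 were then at -0.25, -0.36 and -0.47 with overlapping groups. Glul, Apoe, Car14, Aqp4 and Kcnj10 kept their sign under each of the 15 alternatives. Log2 fold changes of the other 5 changed sign under some alternatives, none of them past the threshold there; without WT1A Sox9 kept its sign and was called. Slc1a3 turned to -0.172 with the length trend removed, -0.125 without WT1A and -0.193 without FS3B. Vim turned to -0.193 without FS3A. Sox9 turned to -0.057 with the length trend removed, -0.511 with libraries summed, and -0.312, -0.281 and -0.368 without WT2A, WT2B and FS3A. Dkk3 turned to 0.095 with total counts and 0.193, 0.021 and 0.087 without WT2B, FS3A and FS5A. Clu turned to -0.052 with libraries summed and -0.102 without FS3B. With 1 library left out, the ranges were -0.193 to 0.175 for Slc1a3, -0.193 to 0.416 for Vim, -0.368 to 1.63 for Sox9, -0.399 to 0.193 for Dkk3 and -0.102 to 0.383 for Clu. The cause was not tested. The older quasi-likelihood fit of edgeR, chosen after seeing the data, called 215 genes and 0 of the 10. The alternatives for the gliosis list were also chosen after seeing the data. No paired analysis was possible because the columns carry no replicate numbers of the labels.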
